A study of Drosophila melanogaster with 63 samples.

Results

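Adult OregonR males of Drosophila melanogaster that had starved for 24 h were compared with males that had received sugar alone for 24 h. Both groups were kept at 25 °C on standard food before the treatment. Starved males were placed on filter paper soaked in PBS, a buffered salt solution without food, and sugar-fed males on filter paper with PBS and 20% sucrose. Each group was hybridised, on arrays with 2 dye channels, against control flies of the same sex given yeast paste on PBS-soaked filter paper, so all of these flies, controls included, had left the standard food. The comparison used 12 of the 63 arrays, 6 starved and 6 sugar-fed, with each dye orientation on 3 arrays of each group. Of 9212 genes, 9192 had a value in both male groups.

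The value of a gene is the authors' log2 ratio to the yeast-fed control, and the difference reported is the starved ratio minus the sugar ratio. A difference above 0 therefore means a higher value in starved than in sugar-fed males, and 1 on this scale is a factor of 2. The ratio is only likely to run as treated over control, since no label states its direction. The basis is that each label names its control, that the storage protein gene Lsp2 stood at 8.52 in larvae of 88 h against larvae of 40 h, and that 18 yolk and eggshell genes had a median of -2.22 in starved females. If the direction were the opposite, every sign below would turn.

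All arrays of a group carry 1 merged value, so each male group is 1 measurement. The spread between replicates is unknown, no test was possible, and "above" and "below" describe the merged values. The closest available yardstick was the agreement of different clones of the same gene. Among 643 genes with exactly 2 clones, the difference between starved and sugar-fed males varied between the clones by a median of 0.12, and by 0.42 at the 95th percentile. A ratio carries no expression level, so the labelled sex and source could not be checked against marker genes, and fewer cells of a type cannot be told apart from less RNA per cell.

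Yeast paste supplies protein, lipids and vitamins, sucrose supplies carbohydrate alone, and PBS supplies neither. In insects, dietary sugar acts through the Mondo-Mlx transcription factors and their target sugarbabe, and lowers the need to make glucose from other precursors. Fasting is generally met by release of stored glycogen and fat, with lipases such as brummer acting on the fat body. Purine synthesis needs amino acids and folate-bound carbon units, and digestive enzyme genes of the fly midgut are known to respond to the food present.

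Most genes had nearly the same ratio in both groups. The median difference over all genes was 0.01, its SD over genes 0.20, and 98.3% of genes lay within 1.5-fold. By any amount, 53.3% of all genes were higher in starved than in sugar-fed males. This is the share to set beside the counts of list members below. Starved males were at least 2-fold above sugar-fed males at 18 genes, 0.196% of those measured, and at least 2-fold below at 34 genes, 0.37%. Differences ran from -3.14 to 1.95. Against yeast, starved males had 2 genes (0.0218%) above and 52 (0.566%) below by 2-fold or more. Sugar-fed males had 10 such genes higher (0.109%) and 104 lower (1.13%). Thus most of the genes past 2-fold from yeast in either group were lower than in yeast-fed males.

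The genes with the starved value above the sugar value had low values on sugar. Of the 18, 17 were at least 2-fold below yeast in sugar-fed males, and in 14 of these starved males were within 2-fold of yeast. No gene of the 18 was 2-fold above yeast in starved males. The median ratio to yeast of the 18 genes was -0.61 in starved and -1.80 in sugar-fed males. CG5966 was the exception, at 0.18 in starved and -0.94 in sugar-fed males.

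The genes with the starved value below the sugar value were more mixed. Of the 34, 9 were at least 2-fold above yeast on sugar and 11 were at least 2-fold below yeast in starvation, with none in both classes. The other 14 passed 2-fold from yeast in neither group, and 21 of the 34 had opposite signs in starved and sugar-fed males. Their median was -0.74 in starved and 0.42 in sugar-fed males. Since the rule selects on the difference of these same values, the split describes the genes and tests nothing.

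**Figure D1:**
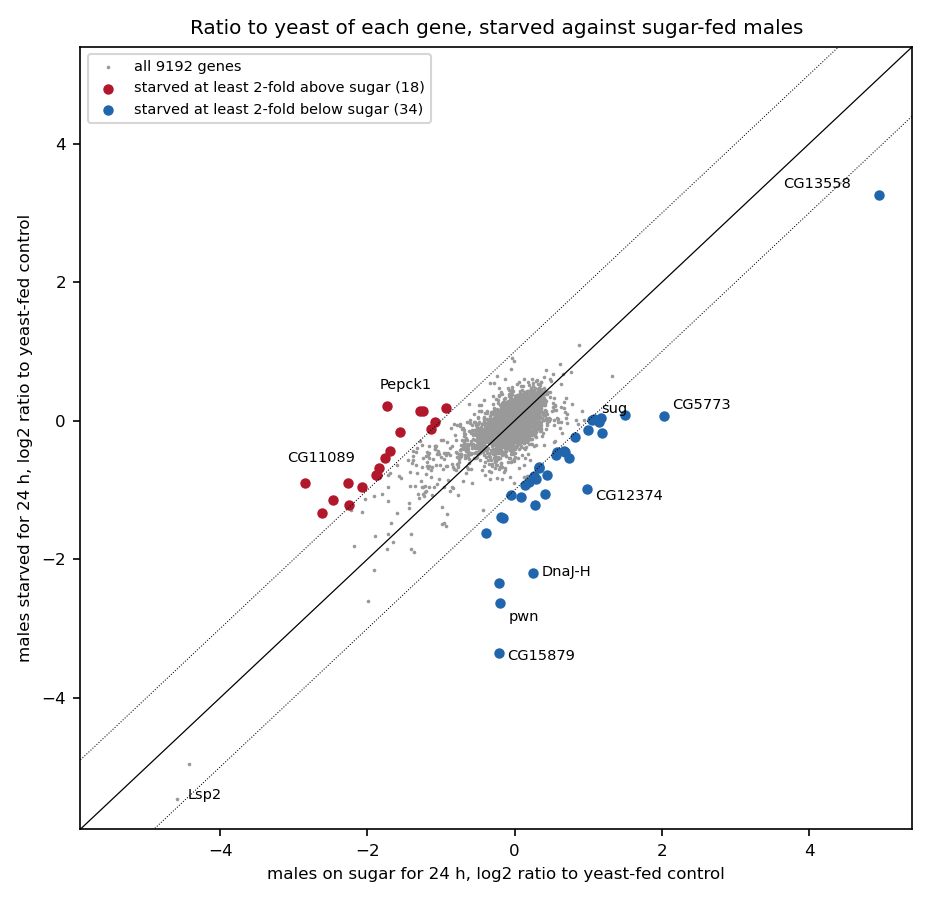
Log2 ratio to the yeast-fed control in males on sugar for 24 h (x axis) and in males starved for 24 h (y axis), 1 point per gene, with the line of equal values and dotted lines at a 2-fold difference. The 18 genes in red lie left of the cloud, at low values on sugar, whereas the 34 genes in blue are spread from CG15879, low in starved males alone, to CG5773, high on sugar alone.

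All 3 measured genes of gluconeogenesis, the making of glucose from other precursors, were higher in starved than in sugar-fed males. Pepck1, which encodes the phosphoenolpyruvate carboxykinase that commits carbon to this route, had a ratio to yeast of 0.21 in starved and -1.73 in sugar-fed males, a difference of 1.94. For fbp, the fructose-1,6-bisphosphatase, the ratios were -0.65 and -1.60, and the difference of 0.95 was just under 2-fold. PCB, the pyruvate carboxylase that feeds the pathway, stood at -0.15 and -0.53. Starved males were thus near or moderately below the yeast level at each of these genes, and sugar-fed males further below it. The median difference of the list was 0.95, beside 0.01 over all genes.

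Purine synthesis held 4 of the 18 genes above sugar. The list had 10 measured members, 7 with the starved value higher beside 53.3% of all genes, and a median difference of 0.61. CG11089, which RefSeq also lists under the older name atic, an enzyme of the last steps of the pathway, had the highest difference of all genes, 1.95, with ratios of -0.90 in starved and -2.85 in sugar-fed males. Its 2 clones gave 1.64 and 2.26. Gart, an enzyme with several activities in the middle of the pathway, stood at -0.90 and -2.26, and its clones differed by 1.27 and 1.46 between the diets. Both genes were thus far below yeast on sugar whichever clone was read.

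The remaining steps towards inosine monophosphate ran the same way. Pfas and Paics, which act in the middle of the pathway, had differences of 1.26 and 1.10. Prat2, a gene for the entry enzyme, had a difference of 0.73, whereas Prat, the other gene for this step, had -0.02. Adsl, which acts both before and after inosine monophosphate, had 0.50. The genes of the branches after inosine monophosphate lay near 0, with Adss of the AMP branch at 0.21 and ras and bur of the GMP branch at -0.02 and -0.06. The genes at 2-fold were therefore all in the shared part of the pathway, and all were below yeast in starved males too, by less.

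The folate and glycine enzymes, which supply carbon units to purine synthesis, had 10 of 13 members higher in starved males and a median difference of 0.28. Sardh, the sarcosine dehydrogenase, stood at -0.17 in starved and -1.56 in sugar-fed males. Nmdmc, a mitochondrial folate enzyme, stood at -0.96 and -2.08. These were the only members at 2-fold. Next came pug, a folate enzyme with several activities, at -0.75 and -1.69, and Shmt, which moves a carbon unit from serine to folate, at -1.29 and -2.22. At the other end were Bhmt, AhcyL1 and CG10621, with differences of -0.18, -0.11 and -0.12. The serine synthesis gene aay, a phosphoserine phosphatase outside the list, fell just short of the threshold at 0.99.

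Genes of amino acid breakdown were higher in starved males at 15 of 18 members, mostly by little, with a median of 0.21. Hpd, an enzyme of tyrosine breakdown, was the only member past 2-fold, at -0.69 in starved and -1.85 in sugar-fed males. The aspartate aminotransferases Got1 and Got2 had differences of 0.81 and 0.79. Some members were well below yeast on both diets with little between them, such as the ornithine aminotransferase Oat at -1.47 and -1.68. Tat, the tyrosine aminotransferase upstream of Hpd, had a difference of 0.01. The genes slgA, Gdh and P5CDh1, which act in proline and glutamate oxidation, had differences of -0.04, -0.13 and -0.17.

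**Figure D2:**
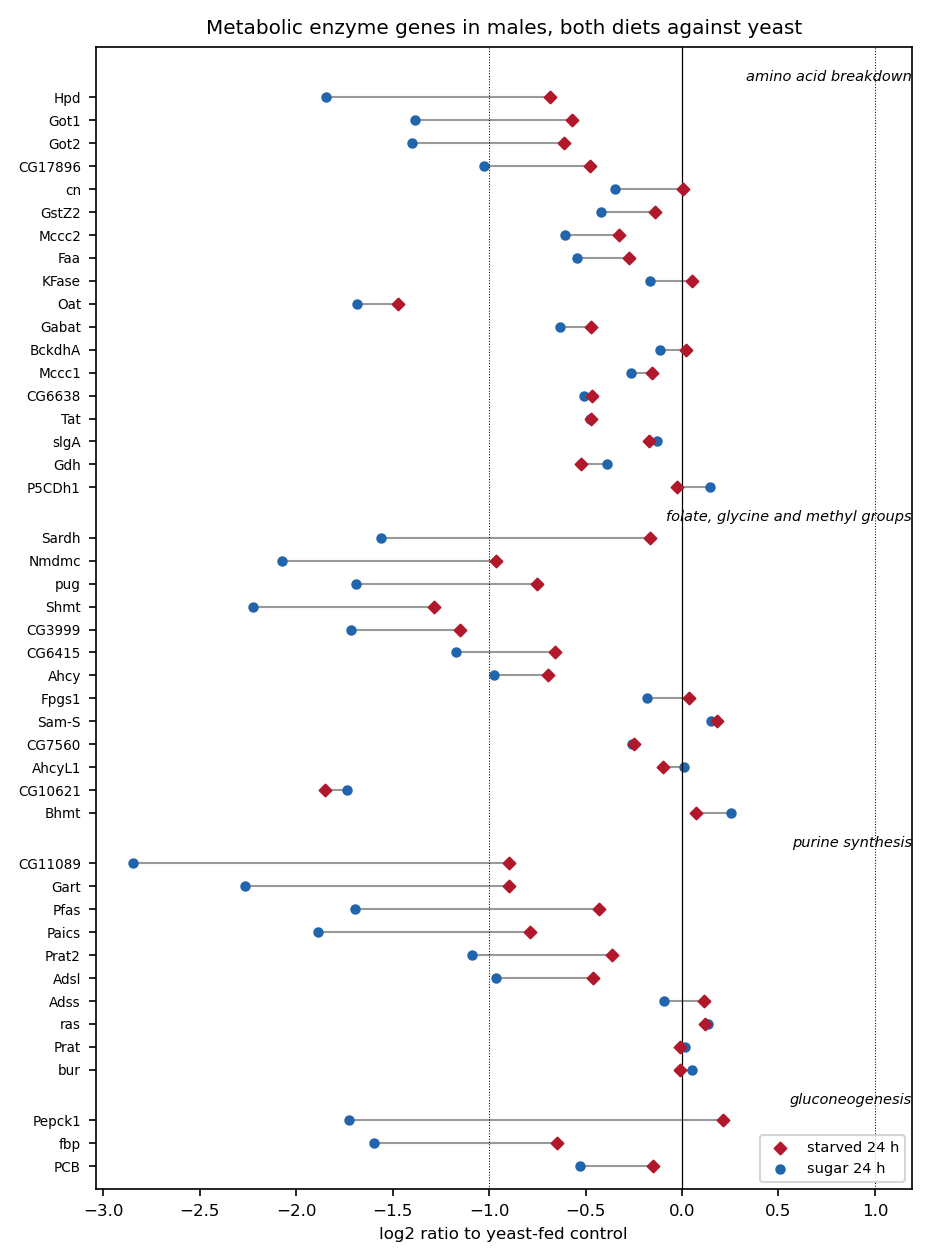
Log2 ratio to the yeast-fed control (x axis) of the measured genes of 4 metabolic lists in males starved (red diamonds) or on sugar (blue circles) for 24 h, with dotted lines at 2-fold. Sugar-fed males lie to the left of starved males at all 3 genes of gluconeogenesis and at most genes of purine synthesis, with CG11089 and Pepck1 the widest apart.

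Other enzymes among the 18 genes followed the same layout of low values on sugar. Miox, a myo-inositol oxygenase, stood at 0.14 in starved and -1.28 in sugar-fed males. The secreted phospholipase gene GIIIspla2 stood at 0.14 and -1.24. The regucalcin relative smp-30 was below yeast on both diets, at -1.34 and -2.62, as were Galk, the galactokinase, at -0.78 and -1.88, and CG9119 at -1.14 and -2.47. CG3699, which RefSeq also lists as DECR2, stood at -1.22 and -2.25, and CG32444 at -0.01 and -1.08. These genes shared a sugar value at least 2-fold below yeast, but starved males ranged from the yeast level to more than 2-fold below it.

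Genes that handle sugars inside cells differed less. The glycogen and trehalose list had 6 of 10 members higher in starved males, none at 2-fold, and a median of 0.11. UGP, which makes the UDP-glucose used for glycogen, stood at -0.35 in starved and -1.26 in sugar-fed males, and Pgm1, which interconverts glucose phosphates, at -0.11 and -0.71. Tps1, which makes trehalose, the main blood sugar of insects, ran the other way at -0.34 and 0.19. The glycogen synthase Glys, the branching enzyme AGBE and CG9485 had differences of 0.25, 0.27 and 0.21, and the glycogen phosphorylase Glyp had 0.01. The trehalose transporters Tret1-2 and Tret1-1 had -0.32 and -0.22, and the trehalase Treh had -0.06.

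Glycolysis had 8 measured members with differences from -0.10 to 0.31 and a median of 0.18. The hexokinases Hex-C and Hex-A had differences of 0.31 and 0.20. Eno, Pglym78, Ald1 and Pfk had 0.23, 0.19, 0.17 and 0.06, while Pgk had -0.10 and Gpdh1 was at -0.28 on both diets. In the pentose phosphate pathway 5 of 6 members were higher in starved males, led by CG8036 at 0.71 and the transaldolase gene Taldo at 0.70, and the malic enzyme gene Men, which like this pathway supplies NADPH, was at -0.17. The citric acid cycle list had a median of 0.07 over 8 members, from -0.05 at Idh3g to 0.25 at Scsalpha1. No member of these 3 lists reached 2-fold.

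Among the sugar sensing genes, the 4 with the lowest differences were above yeast on sugar and at the yeast level in starvation. The transcription factor gene sug (sugarbabe) stood at 0.02 in starved and 1.05 in sugar-fed males, a difference of -1.04. The transcription factor gene cbt (cabut) stood at 0.02 and 1.08, a difference of -1.05. The activin-type ligand gene daw stood at -0.01 and 0.59, and AkhR, the receptor for adipokinetic hormone, at 0.02 and 0.59. At these 4 genes starved males lay at the yeast level and sugar-fed males above it.

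The other members of that list differed little between the diets. Mondo, the sugar-sensing transcription factor, had a difference of 0.23 and its partner bigmax -0.11. The fructose receptor gene Gr43a and the signalling genes upd2 and sNPF had -0.04, -0.03 and 0.07. In all, 7 of 9 members were lower in starved males, with a median of -0.11. The list includes direct targets of sugar from the literature, and its members were chosen with earlier results of these data known.

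The insulin and TOR list had a median of -0.03 over 17 members, with 8 higher and 9 lower in starved males. Ilp2, an insulin-like peptide gene of the brain, had a difference of 0.45, and the insulin receptor gene InR stood at 0.51 in starved and 0.19 in sugar-fed males. ImpL2, which encodes a secreted binding protein for insulin-like peptides, stood at 0.20 and 0.62. The autophagy and cathepsin list was lower in starved males at 14 of 19 members, by a median of only -0.06. Its 1 member past 2-fold, Atg12, was at -0.02 in starved and 1.14 in sugar-fed males.

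Genes of fat release and fat oxidation were higher in starved males at 15 of 18 members, with a median of 0.17. The gene bmm (brummer), the lipase of the fat body's lipid droplets, stood at -0.12 in starved and -1.13 in sugar-fed males, and its 2 clones gave 0.98 and 1.05. Had1 stood at -1.31 and -2.08, and Lip4 had a difference of 0.53. The gut lipase gene mag (magro) ran the other way, at -0.45 and 0.68, a difference of -1.13. The genes bmm and mag thus lay at opposite ends of the list, and no contrast between lipases of stored fat and of food was tested.

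Fat synthesis and storage genes were divided, with 9 of 18 members higher and 9 lower. Lsd-1, a perilipin that coats lipid droplets, stood at -0.50 in starved and 0.56 in sugar-fed males, a difference of -1.06. The fatty acid synthase gene FASN2 had a difference of -0.61 and FASN1 -0.31. In contrast Lpin, the phosphatidate phosphatase, had 0.60 and ACC, which makes malonyl-CoA, 0.48. The lipoprotein gene apolpp, whose product carries lipid in the blood, stood at -0.92 and 0.14, while Apoltp, the lipid transfer particle gene, was at 0.81 and 0.61. The lipid carrier list as a whole had 6 of 8 members higher in starved males and a median of 0.12.

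Carbohydrate-digesting enzymes and proteases lay on opposite sides. All 17 measured genes of the carbohydrate list were higher in starved than in sugar-fed males, with a median difference of 0.41, whereas over all genes 53.3% were higher. The ratio to yeast had a median of -0.65 in starved and -1.13 in sugar-fed males, and 12 of the 17 were at least 2-fold below yeast on sugar against 2 in starvation. The maltase gene Mal-B1 had the largest difference, at -0.54 in starved and -1.76 in sugar-fed males. The amylase relative Amyrel followed at -0.57 and -1.45. The smallest difference was 0.06 at the glucosidase gene tobi, which stood at -1.07 and -1.13.

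Within the list the 8 Mal maltases had a median of 0.48, and the 6 LMan genes, relatives of the lysosomal alpha-mannosidases, 0.27. Members of these families are close in sequence, and cross-hybridisation between them was not tested, so they are not independent readings.

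Of the 28 Jonah and trypsin protease genes, 25 were lower in starved than in sugar-fed males, and the median difference was -0.49. Jon65Aiv stood at -0.79 in starved and 0.43 in sugar-fed males, Jon74E at -0.13 and 1.00, and Jon65Aiii at -0.45 and 0.57. These 3 were past 2-fold, and Jon25Bii, at -0.80 and 0.17, was just under. Jon65Aiv and Jon65Aiii are neighbours on chromosome arm 3L in RefSeq's gene order, the only adjacent pair among the 52 genes apart.

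Some proteases were below yeast on both diets, and by more in starvation, such as Jon25Bi at -2.61 and -1.99. The 13 Jonah genes had a median ratio of -1.49 in starved and -0.96 in sugar-fed males, and the 15 trypsins and others -0.22 and 0.21. Exceptions were Ser6, kappaTry and Jon99Ci, with differences of 0.24, 0.18 and 0.08. In males on sugar for 48 h the median ratio was -2.34 for the Jonah genes and -0.12 for the trypsins and others. Over all 28 genes it was -0.44, against -0.06 on sugar at 24 h and -0.38 in males starved for 24 h. The lower protease values in starvation are thus relative to sugar at 24 h, and starved males at 48 h were not analysed here. The aspartic protease gene Bace, outside the list, stood at -0.43 and 0.67. As for the maltases, sequences in this family are close, and cross-hybridisation was not tested.

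**Figure D3:**
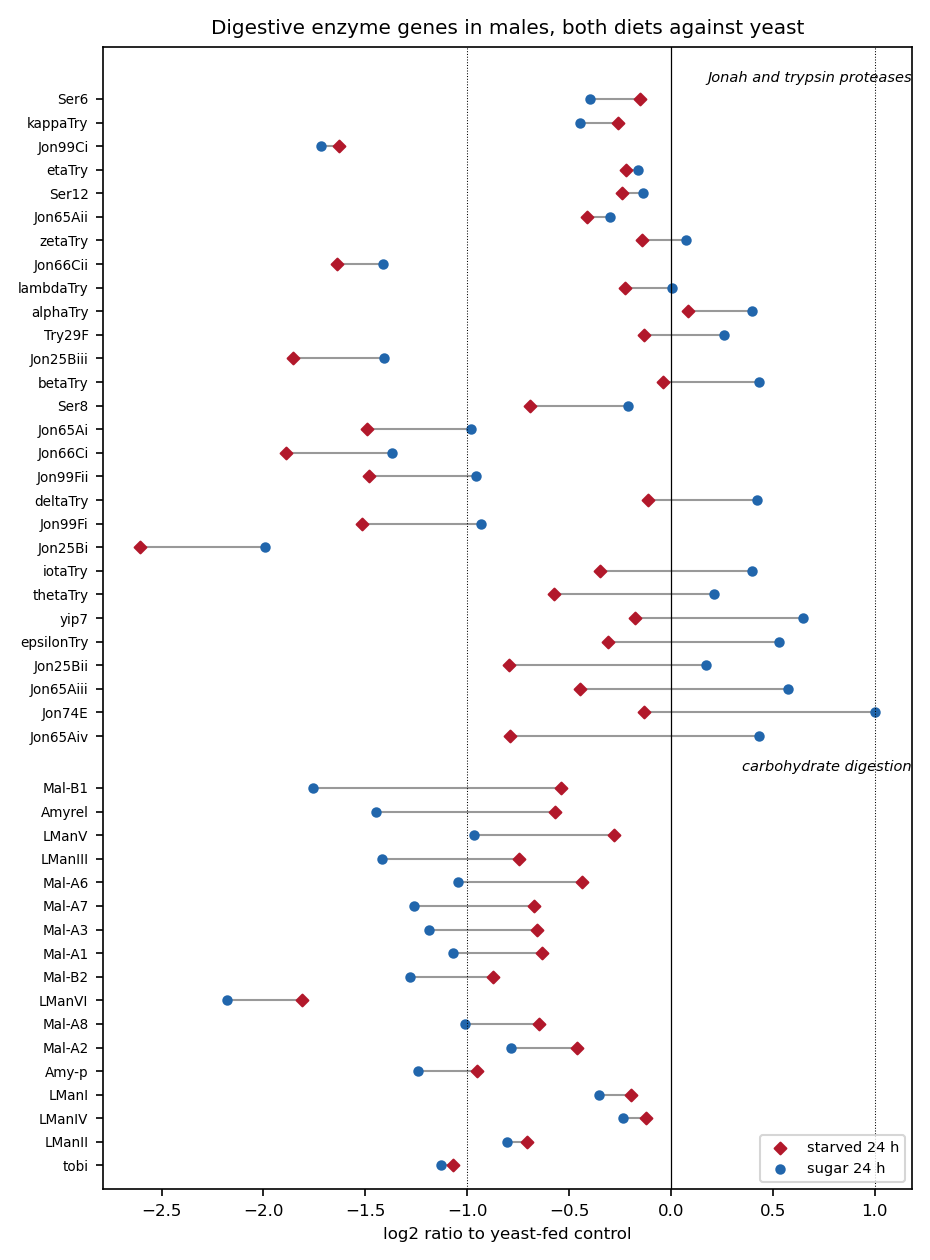
Log2 ratio to the yeast-fed control (x axis) of 28 Jonah and trypsin protease genes and 17 carbohydrate-digesting genes in males starved (red diamonds) or on sugar (blue circles) for 24 h, with dotted lines at 2-fold. The starved value lies to the right of the sugar value at all 17 carbohydrate genes and to the left at 25 of the 28 protease genes.

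All 4 measured lysozyme genes, digestive members of a bacteria-degrading enzyme family in the fly gut, were lower in starved males. LysE stood at -0.80 in starved and 0.26 in sugar-fed males, and LysX at -0.67 and 0.34. LysP and LysS had differences of -0.60 and -0.25. The peptidoglycan recognition proteins, which bind bacterial cell wall, lay on the other side at 5 of 7 members, with PGRP-SB1 at 0.50 and PGRP-SC1a at 0.42. The full immune list of 18 genes, which holds both families and the antimicrobial peptides, had a median of 0.07.

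Of the 11 genes that were 2-fold below yeast in starved males and below sugar, 8 were within 2-fold of yeast in every other adult group that measured them. For 3 of these 8, pwn, DnaJ-H and Scgalpha, there was no value in starved females at 24 h, so that comparison is missing. In males on sugar for 24 h, 1.13% of all genes were at least 2-fold below yeast and 0.109% above. At 48 h these shares were 1.83% and 0.206%. Nearly all genes were thus within 2-fold of yeast in these male groups, and the same shares in the female groups are not given here. The share of all genes within 2-fold in every other adult group was not counted. The count of 8 is therefore not read as a trait of these genes. CG15879 had the lowest difference of all genes, -3.14, at -3.36 in starved and -0.22 in sugar-fed males. The gene pwn, known for its effect on bristle shape, stood at -2.64 and -0.20, and DnaJ-H, a co-chaperone gene, at -2.20 and 0.24. Spn28F, a serpin, Scgalpha, a sarcoglycan of muscle membranes, Acp76A and CG31233 had differences of -1.23, -1.18, -1.03 and -1.47. All rest on 1 clone each but CG11247, whose value of -2.13 is the midpoint of clones at -4.22 and -0.04. The difference between those clones, 4.18, is the largest among the genes with 2 clones, so its call rests on 1 clone. Whether these low values belong to the flies or to the spots was not tested.

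Among the genes high on sugar were CG13558, which was far above yeast on both diets at 3.27 in starved and 4.95 in sugar-fed males, and CG5773 at 0.06 and 2.02. CG13607 and CG3348 followed at 0.08 and 1.5 and at -0.18 and 1.18. CG12374 had opposite signs, at -0.99 and 0.98, as had CG12057 at -1.21 and 0.28. No role is given here for these CG-numbered genes. Aos1, a subunit of the SUMO-activating enzyme, was below yeast in starvation and near it on sugar, at -1.41 and -0.16, as was nes, a lysophospholipid acyltransferase gene, at -1.39 and -0.19.

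Lists for organs of the male gave small medians except for the accessory gland. The list of male germline and accessory gland genes had 13 of 29 members higher in starved males and a median of -0.06. After the values were seen it was divided, and 10 of the 11 accessory gland genes, which encode seminal fluid proteins, were lower in starved males, with a median of -0.38. Their median ratio to yeast was -0.63 in starved and -0.12 in sugar-fed males. Acp76A stood at -1.08 and -0.05, Acp36DE at -1.07 and -0.10, and Acp62F had a difference of -0.58. Of the 18 germline genes, 12 were higher and 6 lower, with a median of 0.06, from -0.37 at comr, a regulator of testis genes, to 0.25 at Mst98Ca and 0.29 at Mst98Cb.

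Markers of other tissues lay close to the median of all genes. The median was 0.03 for 13 muscle genes, -0.03 for 10 nervous system genes and 0.01 for 11 blood cell genes, and 10 eye genes were higher and lower in starved males 5 times each. Yolk and eggshell genes, which serve the making of eggs in females, had a median of -0.01 over 18 members. The larval storage protein Lsp2 was the lowest gene against yeast on both diets, at -5.46 in starved and -4.59 in sugar-fed males, and the storage list of 2 genes had a median of -0.46.

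Large sets of housekeeping genes had small shifts. All 19 cytosolic ribosomal protein genes measured were higher in starved than in sugar-fed males, by 0.01 to 0.23 with a median of 0.10, beside 53.3% of all genes higher and their median of 0.01. Respiratory chain genes were higher at 33 of 46 members with a median of 0.06, and mitochondrial ribosomal protein genes at 37 of 53 with 0.04. Ribosome assembly genes had a median of 0.05 over 23 members, and translation factors and tRNA synthetases 0.00 over 65. The proteasome list was lower in starved males at 25 of 35 members with a median of -0.04.

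Detoxification, stress and clock lists had no member at least 2-fold higher in starved males, and only DnaJ-H at least 2-fold lower. Glutathione and UDP-glycosyl transferases were higher at 44 of 62 members with a median of 0.07, led by GstE13 at 0.82, and cytochrome P450 genes had a median of -0.01 over 66 members, from -0.67 at Cyp313a1 to 0.48 at Cyp4e3. Heat shock and chaperone genes had a median of -0.03 over 12 members, where DnaJ-H was the 1 gene past 2-fold, and the 7 clock genes had 0.02.

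**Figure D4:**
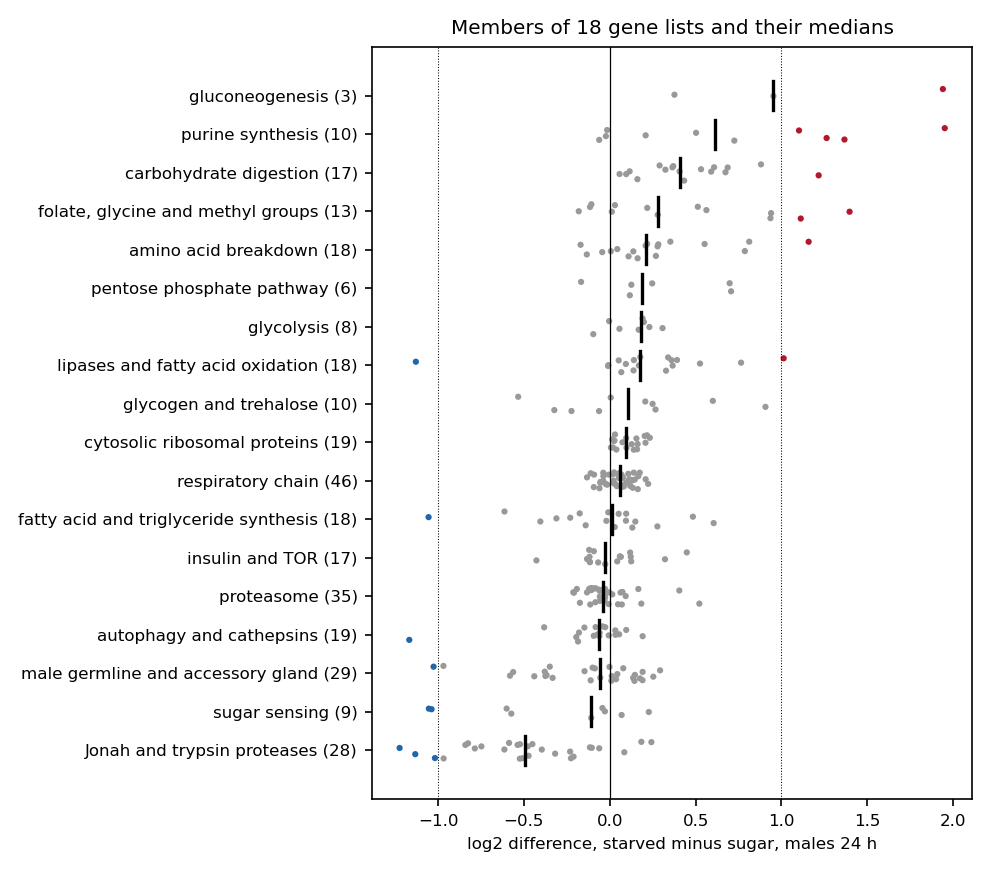
Difference of the log2 ratios, starved minus sugar-fed males at 24 h (x axis), of each measured member of 18 gene lists, with a bar at each list's median, member numbers in brackets, and dotted lines at 2-fold. Medians run from 0.95 for gluconeogenesis to -0.49 for the Jonah and trypsin proteases, and genes past 2-fold are coloured.

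The same difference in females was smaller at 24 h. Over all genes measured in females, 52.1% were higher by any amount in starvation than on sugar. In starved females 6 genes (0.0653%) stood at least 2-fold above and 5 (0.0545%) at least 2-fold below sugar-fed females. Of the 18 genes above sugar in males, 15 had the same sign in females and none reached 2-fold, with a median of 0.18. Pepck1, smp-30 and Mal-B1 were the highest, at 0.91, 0.78 and 0.73. The purine genes CG11089, Gart, Pfas and Paics had 0.27, 0.12, 0.01 and 0.10, and bmm had -0.04.

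At several of these genes the sexes lay further apart on sugar than in starvation. Gart was at -0.74 in sugar-fed females and -2.26 in sugar-fed males, and -0.63 and -0.90 in starved females and males. For bmm the sugar values were -0.37 in females and -1.13 in males. In contrast CG11089 was low in females on both diets, at -1.75 in starvation and -2.02 on sugar.

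Of the 34 genes below sugar in males, 30 were measured in both female groups, with 20 of the same sign, 10 of the opposite sign and a median of -0.23. CG5773 was 2-fold lower in starved females too, by -1.05, and cbt and sug had -0.43 and -0.42. The gene nes ran the other way, at 1.52. Proteases were not lower in starved females, where 19 of 28 were higher with a median of 0.07. The carbohydrate list kept its direction, with 14 of 16 members higher and a median of 0.39. The cytosolic ribosomal protein genes did not, with 7 of 19 higher.

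The male difference exceeded the female difference by at least 2-fold at 20 genes (0.218%) and fell short of it by as much at 21 (0.229%). Of the 48 genes apart in males that females also measured, 11 and 13 were among these. Since the genes were chosen for large male values, such a gap is partly built in, and with 1 merged value per group the difference between the sexes could not be tested.

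**Figure D5:**
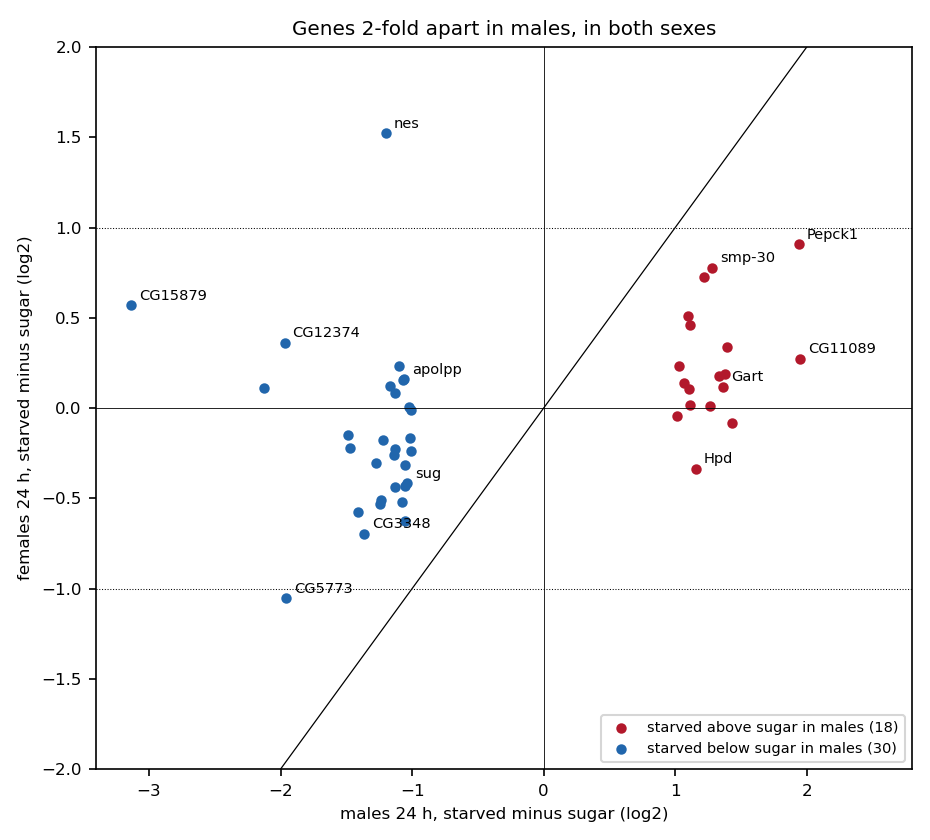
Difference of the log2 ratios, starved minus sugar-fed at 24 h, in males (x axis) and females (y axis) for the 48 genes 2-fold apart in males that females also measured; the diagonal marks equal differences and dotted lines 2-fold in females. Pepck1 lies nearest to 2-fold among the 18 genes in red, and among the 30 in blue CG5773 and nes are past it, in opposite directions.

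At 48 h, a time at which starved males were not analysed here, starved females were at least 2-fold above sugar-fed females at 73 genes (0.793%) and below at 13 (0.141%). All 18 genes above sugar in males had the same sign, beside 52.0% of all genes higher by any amount in females at this time, 7 reached 2-fold, and the median was 0.76. CG5966 had 1.76, Sardh 1.22, CG11089 1.09 and Pepck1 1.03, whereas Gart had 0.20. For the 34 genes below sugar, 20 had the same sign and 14 the opposite, with a median of -0.15 and 3 genes at 2-fold the same way. The direction seen in males at 24 h was therefore matched in females at 48 h more often among the genes above sugar than among those below, a contrast that was not tested.

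Males on sugar for 48 h gave a second reading of the sugar diet, on 4 other arrays. By 2-fold or more, 19 genes (0.206%) stood above yeast and 169 (1.83%) below it. All 18 genes above sugar at 24 h were below yeast at 48 h, 16 of them by at least 2-fold, with a median of -2.09. Gart stood at -3.28, CG11089 at -3.27 and smp-30 at -2.88. GIIIspla2, at -0.31, was nearer to yeast than at 24 h.

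Of the 34 genes below sugar, 27 were above and 7 below yeast on sugar at 24 h. At 48 h 33 were measured, 18 above and 15 below yeast, with a median of 0.09, and 6 were at least 2-fold above. Of the 15, 5 had been below yeast at 24 h too and 10 above it. The median move from 24 h to 48 h was -0.24 for these genes and -0.35 for the 18 genes above sugar, so both sets stood lower at 48 h. CG5773, sug and cbt stayed high, at 1.79, 1.44 and 1.34. Atg12 turned from 1.14 at 24 h to -1.31 at 48 h, and Jon65Aiv from 0.43 to -0.64. Jon25Bii, just outside the threshold, was at -3.31 at 48 h against 0.17 at 24 h. The sign on sugar was the same at both times for all 18 genes above sugar. Among the 33 measured genes below sugar, 10 turned from above to below yeast. CG15879 and CG11247 turned the other way, from -0.22 to 0.09 and from -0.22 to 0.48. Both sets were chosen with the 24 h sugar value, so this contrast is partly built in and was not tested. Over all genes the median ratio on sugar was 0.005 at 24 h and 0.022 at 48 h, and their changes of sign were not counted.

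The threshold divides a continuous range. Just inside it were bmm at 1.01 and CG3699 at 1.03 above, and LysX and CG17571 at -1.01 below. Just outside were aay at 0.99, fbp and CG3631 at 0.95, CG16926 at -0.99 and Acp36DE and Jon25Bii at -0.97. Of the 52 genes apart, 48 rested on 1 clone, 15 above and 33 below.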

How the data were processed

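Every array had 3 scans, per the labels, and both copies of a spot and all repeat hybridisations were merged by the authors into 1 deposited log2 ratio per clone, repeated on every array of a group. Columns of a group were identical. Base 2 was settled from the values. How the ratios were normalised and background-corrected is not given in the sources used here. Medians over clones were 0.003 (starved) and 0.004 (sugar), so centring near 0 is likely, but how it was done is unknown. Whether both diets shared their yeast-fed control RNA is not stated, so no correlation between them is given.

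Of 12094 clones, 10148 had 1 gene symbol, updated through the RefSeq annotation of Release 6 plus ISO1 MT, 9814 by gene identifier, 87 by accession and 247 by symbol. 1945 had none and 1 had several. Clones of the same gene were summarised by their median. No filter on low values was made, because spot brightness was not analysed here, and precision is limited by the number of arrays.

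The limma fit planned for single-array values could not be run. The members and the 34 gene lists were chosen with earlier results of these data known. 6 misnamed members were removed after the files were seen. Named were the 20 highest and 20 lowest genes, 3 from each end of each list and 5 lists in full; CG-numbered genes beyond 6 per direction could be left out, and a few others were named for a contrast. Counting was tested on simulated data. Python 3.11.15, pandas 2.3.3 and numpy 2.4.6 were used. No sequences are printed.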

Additional observations from a re-analysis of the deposited data

Results flagged for a closer look

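The starved minus sugar difference of nes was -1.20 in males and 1.52 in females at 24 h, a gap of -2.72 with opposite signs. In males the ratios to yeast were -1.39 in starvation and -0.19 on sugar, and in females 2.18 and 0.66. For CG13558 the difference was -1.68 in males at 24 h and 1.79 in females at 48 h, a gap of -3.47, but these differ in time as well as sex. Each gene rests on 1 clone and 1 merged value per group, and the difference was not tested.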

How the results depend on the processing

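With a threshold of 1.5-fold, 87 genes were above and 71 below sugar, so the excess of genes below at 2-fold (18 above, 34 below) was reversed in balance. With 3-fold, 2 were above and 7 below. Among genes with at least 2 clones, 3 were above and 1 below, since few genes have a further clone. The mean over clones, the clone nearest 0, centred columns, equal spread of both columns and naming by gene identifier alone gave 16 to 18 above and 33 to 37 below. Of 170 list medians under these 5 settings, 1 moved by more than the median gap between clones, that of the storage proteins under equal spread, at -0.64 against -0.46. Of 705 values of named genes, 8 moved by as much, all under equal spread, the largest by 0.35. Leaving out each replicate could not be run because the arrays of a group hold 1 merged value. No paired analysis was possible because the columns carry no values of single chips. The planned search of promoter motifs was not run.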

Other observations

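Clones without a single gene symbol lay in the same range as named genes. Of 1938 such clones with both male values, 1 was at least 2-fold above sugar, at 1.18, and 3 were at least 2-fold below, the lowest at -1.85.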
